A study of Mus musculus with 6 samples.

Results

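The MAP kinases, AMP-activated kinase (AMPK), protein kinase A (PKA) and the calmodulin kinases carry stress, energy, hormone and calcium signals inside muscle cells. Genes of these families, together with the Akt, mTOR and ribosomal S6 kinase genes, were followed in the tibialis anterior (TA), a fast muscle of the lower leg. The members were the genes whose symbols begin with Mapk, Map2k, Map3k or Map4k and a number, Camk, Prka or Rps6k, with the Akt genes and Mtor. This rule found 75 of the 11239 genes listed in the deposited tables. Of the 75, 74 are protein-coding, and Map2k3os is an RNA gene beside Map2k3 on the other strand, annotated as antisense although their spans do not overlap. The rule goes by symbol, so it also takes in scaffolds and binding proteins, an inhibitor of a calmodulin kinase, and Mapkap1, a subunit of an mTOR complex. Mapk8, Mapk11, Mapk12, Mapk13, Prkab1 and Rps6kb2 were not analysed here, so that Mapk14 stands alone among the p38 genes.

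The aged group held 3 samples of C57BL/6 mice aged 18 months, and the young group 3 samples of the same strain aged 3 months. No treatment or genetic change is named for either group. The labels do not say whether each sample came from its own animal, or the sex of the mice. The study concerned a factor secreted by muscle and the loss of muscle stem cells in aged mice, and the comparison given here asks how the RNA of these kinases differed with age. Library totals, recovered from the deposited values, lay between 71984420 and 102135094 fragments. Levels are FPKM, fragment counts divided by the length of the transcript and by the mapped fragments of that library. Changes are differences of log2(FPKM + 1), aged minus young, which understate the change of genes at low levels. A gene "passed" at an adjusted p under 0.05 in limma, adjusted over all 7690 tested genes.

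A MAP kinase cascade works in tiers. A MAP4K can activate a MAP3K, a MAP3K phosphorylates a MAP2K, and a MAP2K phosphorylates a MAP kinase on a threonine and a tyrosine. The ERK branch serves growth signals, while the JNK and p38 branches serve stress and cytokines, and p38 also takes part in the muscle's response to exercise. AMPK is a trimer of a catalytic alpha subunit, a scaffolding beta subunit that binds glycogen and a gamma subunit that senses AMP. PKA is released from its regulatory subunits by cyclic AMP, and calmodulin kinases are switched on by calcium bound to calmodulin.

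The largest falls among the members were those of Map3k6 and Map2k3. Map3k6 (ASK2), which acts above both p38 and JNK, and Map2k3 (MKK3), which acts on p38, fell to 23.9 to 28.8% and 41.1 to 43.0% of the young mean in the aged libraries. Mapk14, the gene of p38 alpha itself, rose, and so did Camk2b, a subunit gene of the calcium and calmodulin kinase CaMKII. In all, 15 members rose, 14 fell and 34 did not pass, out of 63 tested. That is 46.0% of the members called, against 51.8% of all tested genes. Without Map2k3os and Map3k7cl, a gene named for its likeness to Map3k7, 15 rose and 12 fell, and 44.3% were called. Of all tested genes, 27.3% were called higher and 24.5% lower in aged muscle. The share is close to this background, and the members' median log2 change of 0.04 lay beside 0.02 over all genes. In 40 of the 63, the aged and young libraries did not overlap, 22 with every aged library above and 18 with every one below. The background shares were 62.8% without overlap, 33.8% above and 29.0% below. A change of at least 1.5-fold on the log2(FPKM + 1) scale, with a pass, was found in 6 members: Map3k6, Map2k3, Map2k3os, Camk2b, Mapk8ip1 and Map4k4. Whether or not they passed, 7 of the 63 tested members changed this much, beside 1020 of all 7690 tested genes. The samples are whole muscle, in which fewer cells of a type and less RNA per cell cannot be told apart. With each library rescaled to its sum without the 20 highest genes, 22 rose and 12 fell, which moved the share of rises among the calls to 64.7%, against 51.7% without rescaling. Over all tested genes the share of rises moved alike, to 62.6% with rescaling, against 52.7% without it.

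**Figure D1:**
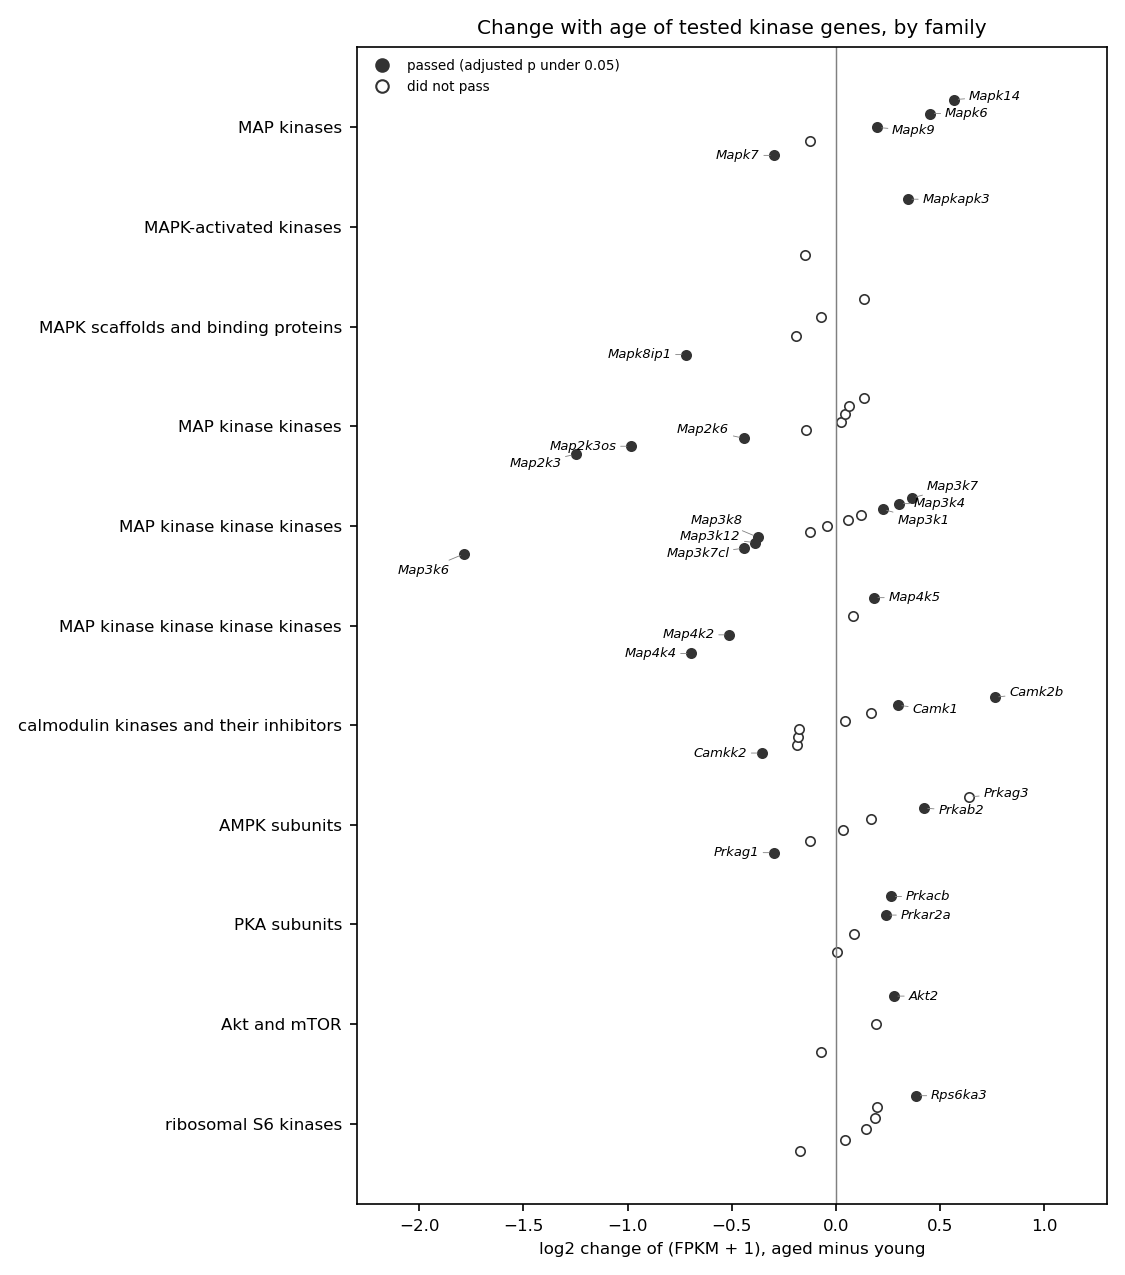
Log2 change of (FPKM + 1), aged minus young, for 61 of the 63 tested members (x axis), one row for each family (y axis). Filled points passed and open points did not. The changes reach from −1.78 for Map3k6 to 0.76 for Camk2b, and every family row except that of the PKA subunits lies on both sides of zero.

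Among all members, Akt2 had the highest level, with a mean of 232 FPKM over the 6 libraries, followed by Prkar2a, Camk2a, Mapkapk2, Map2k2, Map2k3 and Prkab2. There were 16 members above 50 FPKM and 42 above 10 FPKM. The order depends on the transcript length behind the FPKM. In 76.9% of the 8961 genes with several annotated transcripts, the length recovered from the deposited values equalled the mean transcript length within 1 base. With the longest annotated transcript in its place, Mapkapk2 came first and Akt2 ranked 5. For 31 members the longest transcript was over 2 times the length used. A comparison of aged with young muscle for 1 gene keeps its ratio on either length.

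The promoters of the 4 members whose changes stand out in each direction, Map2k3 and Map3k6 among the falls and Camk2b and Mapk14 among the rises, are shown for reference. RefSeq promoters were found for 58 of the 75 members. Each one shown is the 250 bases before the start site in RefSeq on GRCm38.p6, written 5′ to 3′ on the strand of the gene, with capitals marking the CCAAT box (CCAAT, or ATTGG where it lies on the other strand). For Mapk14, which has 2 start sites in the table, the one at the start of the listed gene was taken. For Camk2b the RefSeq start lies inside the listed gene (5969644 to 6066362), and so do the bases shown. Coordinates are chr11:60931804-60932053 (+) for Map2k3, chr4:133240568-133240817 (+) for Map3k6, chr17:28691092-28691341 (+) for Mapk14 and chr11:6065749-6065998 (-) for Camk2b.
Map2k3: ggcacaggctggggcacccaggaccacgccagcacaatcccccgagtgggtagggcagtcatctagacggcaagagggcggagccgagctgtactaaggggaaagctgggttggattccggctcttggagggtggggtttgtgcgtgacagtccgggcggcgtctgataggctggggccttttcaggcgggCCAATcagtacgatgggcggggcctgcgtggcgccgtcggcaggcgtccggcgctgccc
Map3k6: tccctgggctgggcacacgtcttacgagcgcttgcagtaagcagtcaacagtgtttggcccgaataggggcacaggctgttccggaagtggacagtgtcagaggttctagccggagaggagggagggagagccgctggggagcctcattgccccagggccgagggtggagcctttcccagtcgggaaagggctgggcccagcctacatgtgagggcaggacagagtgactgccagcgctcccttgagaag
Mapk14: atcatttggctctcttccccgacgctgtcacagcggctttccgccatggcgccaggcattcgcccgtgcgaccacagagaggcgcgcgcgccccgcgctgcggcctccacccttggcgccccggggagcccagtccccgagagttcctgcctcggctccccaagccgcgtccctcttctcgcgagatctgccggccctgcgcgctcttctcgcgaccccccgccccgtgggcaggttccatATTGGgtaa
Camk2b: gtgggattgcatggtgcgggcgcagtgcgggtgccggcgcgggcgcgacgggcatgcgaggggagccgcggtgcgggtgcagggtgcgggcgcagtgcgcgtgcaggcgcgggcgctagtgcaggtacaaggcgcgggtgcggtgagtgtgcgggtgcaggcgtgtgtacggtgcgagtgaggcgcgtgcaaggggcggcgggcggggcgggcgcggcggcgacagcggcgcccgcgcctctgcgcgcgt

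A CCAAT box lay 59 to 55 bases before the start of Map2k3 and 9 to 5 bases before that of Mapk14, and none was found in the other two. The motif occurs in 33.8% of the 32851 mouse promoters in the table, searched on both strands over the same 250 bases. Neither the core of the cyclic AMP response element (TGACGT, in 6.47% of promoters), nor the AP-1 site (TGANTCA, 6.75%), nor the TATA box (TATAAA, 12.4%) was found in any of the 4. The GC box (GGGCGG, in 32.7% of promoters) occurred 3 times in Map2k3, 3 times in Camk2b and 1 time in Mapk14. The E-box (CANNTG, in 66.2%) occurred 1 time in Map3k6 and 1 time in Mapk14. The GC contents were 67.6% for Map2k3, 62.8% for Map3k6, 70.4% for Mapk14 and 78.4% for Camk2b, all above the median of 52.4% over all promoters. These matches describe the sequence only.

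Genes known to act in the p38 branch, some of them also in the JNK branch, were followed from upper kinases to the kinases that p38 phosphorylates. Map3k6 (chromosome 4, 133240818 to 133252929 on GRCm38, as are all positions), a stress-activated kinase of the apoptosis signal-regulating family, had 8.52, 8.93 and 7.42 FPKM in aged muscle, against 32.7, 33.6 and 26.8 FPKM in young muscle. The groups were far apart, and the log2 change was −1.78 ± 0.10 (SE, adjusted p = 3.24e-05). Its paralog Map3k5 (ASK1), the best studied kinase of the family, had 6.97, 6.33 and 6.66 FPKM in aged muscle, against 5.14, 6.07 and 7.06 FPKM in young muscle. Its aged and young values overlapped, with a log2 change of 0.12 ± 0.10 (SE, adjusted p = 0.364).

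Map2k3 (chromosome 11, 60932033 to 60952811), one of the kinases that phosphorylate p38, had 92.4, 93.0 and 96.7 FPKM in aged muscle, against 226, 239 and 211 FPKM in young muscle. The 3 aged libraries lay close together and well below the young ones, and the log2 change was −1.25 ± 0.06 (SE, adjusted p = 1.76e-05). Map2k6 (MKK6), the other main activator of p38, had 13.4, 11.6 and 16.6 FPKM in aged muscle, against 17.9, 17.4 and 22.1 FPKM in young muscle. It fell, with a log2 change of −0.44 ± 0.14 (SE, adjusted p = 0.0271), but aged replicate 3 came close to the young libraries. Map2k6 no longer passed without aged replicate 1 (adjusted p = 0.0618), aged replicate 2 (0.0740) or young replicate 3 (0.0847), or with no minimum on the level (0.0589). Map2k3 made up most of the pair's summed FPKM, 87.2 ± 1.797% in aged muscle and 92.1 ± 1.44% in young muscle. The sum itself was 108 ± 4.71 FPKM in aged muscle and 244 ± 11.6 FPKM in young muscle (SD, n = 3 each).

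Mapk14 (chromosome 17, 28691342 to 28748404), the p38 alpha gene, had 103, 103 and 95.5 FPKM in aged muscle, against 67.4, 65.9 and 69.2 FPKM in young muscle. All aged libraries were above all young ones, and the log2 change was 0.57 ± 0.06 (SE, adjusted p = 0.000294). Mapkapk3, a kinase that p38 activates, had 48.9, 41.9 and 41.1 FPKM in aged muscle, against 33.4, 35.6 and 34.0 FPKM in young muscle, and rose, with a log2 change of 0.34 ± 0.08 (SE, adjusted p = 0.00811). Mapkapk2 (MK2), its more abundant paralog and a kinase that controls the stability of cytokine mRNAs, had 162, 162 and 141 FPKM in aged muscle, against 173, 172 and 169 FPKM in young muscle. Every aged library was below every young one here, yet the change did not pass, with a log2 change of −0.15 ± 0.07 (SE, adjusted p = 0.0998). The share of Mapkapk3 in the FPKM of the pair was 22.1 ± 1.38% in aged muscle and 16.7 ± 0.497% in young muscle.

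**Figure D2:**
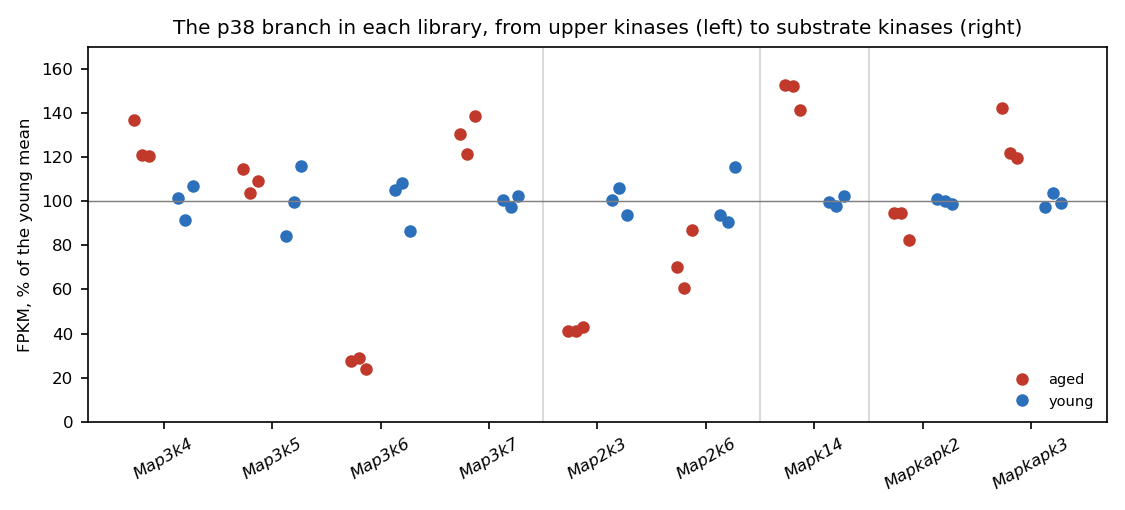
FPKM of 9 genes of the p38 branch in each library, as a percentage of the gene's mean in young muscle (y axis), ordered from MAP3K genes on the left to p38-activated kinases on the right (x axis). Red points are the 3 aged libraries and blue points the 3 young ones. Map3k6, Map2k3 and Map2k6 lie below the line at 100% in aged muscle, while Mapk14 lies between 142% and 153%.

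Map2k3os lies beside Map2k3 on the opposite strand, with a gap of 165 bases between the 2 genes in the deposited tables and 186 bases between their RefSeq starts. It had 3.25, 2.68 and 2.96 FPKM in aged muscle, against 7.21, 6.70 and 6.58 FPKM in young muscle. Like its neighbour it was lower in every aged library, with a log2 change of −0.98 ± 0.08 (SE, adjusted p = 0.000121). The ratio of Map2k3 to Map2k3os FPKM was 31.9 ± 3.20 in aged muscle and 33.0 ± 2.28 in young muscle (SD, n = 3 each), and it overlapped between the groups. The sources used here do not state whether the libraries kept the strand.

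The other MAP3K genes went both ways. Map3k7 (TAK1), which relays cytokine and TGF-beta signals to p38, JNK and NF-kappa B, had 29.2, 27.1 and 31.0 FPKM in aged muscle, against 22.5, 21.7 and 22.9 FPKM in young muscle. It was higher in each aged library, with a log2 change of 0.36 ± 0.07 (SE, adjusted p = 0.00337). Map3k4, a stress kinase that also feeds p38 and JNK, averaged 10.1 ± 0.747 FPKM in aged muscle and 7.995 ± 0.620 FPKM in young muscle (SD, n = 3 each), with a log2 change of 0.30 ± 0.08 (SE, adjusted p = 0.0153), and did not pass when young replicate 2 was left out (adjusted p = 0.0572). Map3k1 (MEKK1), an activator of the JNK branch, averaged 8.49 ± 0.284 FPKM in aged muscle and 7.14 ± 0.538 FPKM in young muscle (SD, n = 3 each), with a log2 change of 0.22 ± 0.07 (SE, adjusted p = 0.0318). It did not pass without aged replicate 1 (adjusted p = 0.0633), aged replicate 3 (0.0824), young replicate 1 (0.0738) or young replicate 2 (0.110), or on the longest transcript (0.0564).

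Map3k12 (DLK), a kinase best known from neurons, had 1.55, 1.5 and 1.23 FPKM in aged muscle, against 2.14, 2.33 and 2.05 FPKM in young muscle. It fell by 0.39 on the log2 scale, and 17.5% of its exon bases are shared with Pcbp2 on the other strand. Map3k8 (Tpl2), an activator of the ERK branch in immune cells, averaged 1.12 ± 0.267 FPKM in aged muscle and 1.75 ± 0.250 FPKM in young muscle (SD, n = 3 each), with a log2 change of −0.38 ± 0.12 (SE, adjusted p = 0.0272). Map3k8 did not pass without aged replicate 2 (adjusted p = 0.0616), aged replicate 3 (0.0817), young replicate 2 (0.0636) or young replicate 3 (0.0910). Map3k7cl, a gene named for its likeness to the C-terminal end of Map3k7, averaged 6.57 ± 0.379 FPKM in aged muscle and 9.31 ± 1.01 FPKM in young muscle (SD, n = 3 each), with a log2 change of −0.44 ± 0.09 (SE, adjusted p = 0.00469). Map3k10 (MLK2) was the MAP3K gene with the highest level, 47.7 ± 5.36 FPKM in aged muscle and 49.0 ± 3.24 FPKM in young muscle (SD, n = 3 each), and did not pass, with a log2 change of −0.04 ± 0.09 (SE, adjusted p = 0.720). Of the 11 genes tested in the MAP3K family, Map3k7cl counted among the falls, 3 rose, 4 fell and 4 did not pass.

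Above them stand the MAP4K genes, of which 1 rose, 2 fell and 1 did not pass. Map4k4, a kinase linked to JNK signalling and to insulin resistance, had 12.8, 12.3 and 11.8 FPKM in aged muscle, against 21.4, 20.9 and 19.2 FPKM in young muscle. The groups were well apart, with a log2 change of −0.70 ± 0.07 (SE, adjusted p = 0.000249). Map4k2 (germinal centre kinase) had 15.8, 15.7 and 14.3 FPKM in aged muscle, against 22.0, 23.3 and 21.1 FPKM in young muscle, and it too was lower in every aged library, with a log2 change of −0.51 ± 0.07 (SE, adjusted p = 0.000887). Map4k5 averaged 13.7 ± 0.557 FPKM in aged muscle and 11.9 ± 0.569 FPKM in young muscle (SD, n = 3 each), with a log2 change of 0.18 ± 0.06 (SE, adjusted p = 0.0458). The call of Map4k5 was the least stable of all. It was lost under the replicate block, a fit with the replicate number as a further factor (adjusted p = 0.0620), under median-of-ratios scaling (0.0520) and without any one library other than aged replicate 3, at adjusted p-values from 0.0786 without young replicate 3, 0.0832 without young replicate 1, 0.0938 without aged replicate 2 and 0.108 without aged replicate 1 to 0.151 without young replicate 2.

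**Figure D3:**
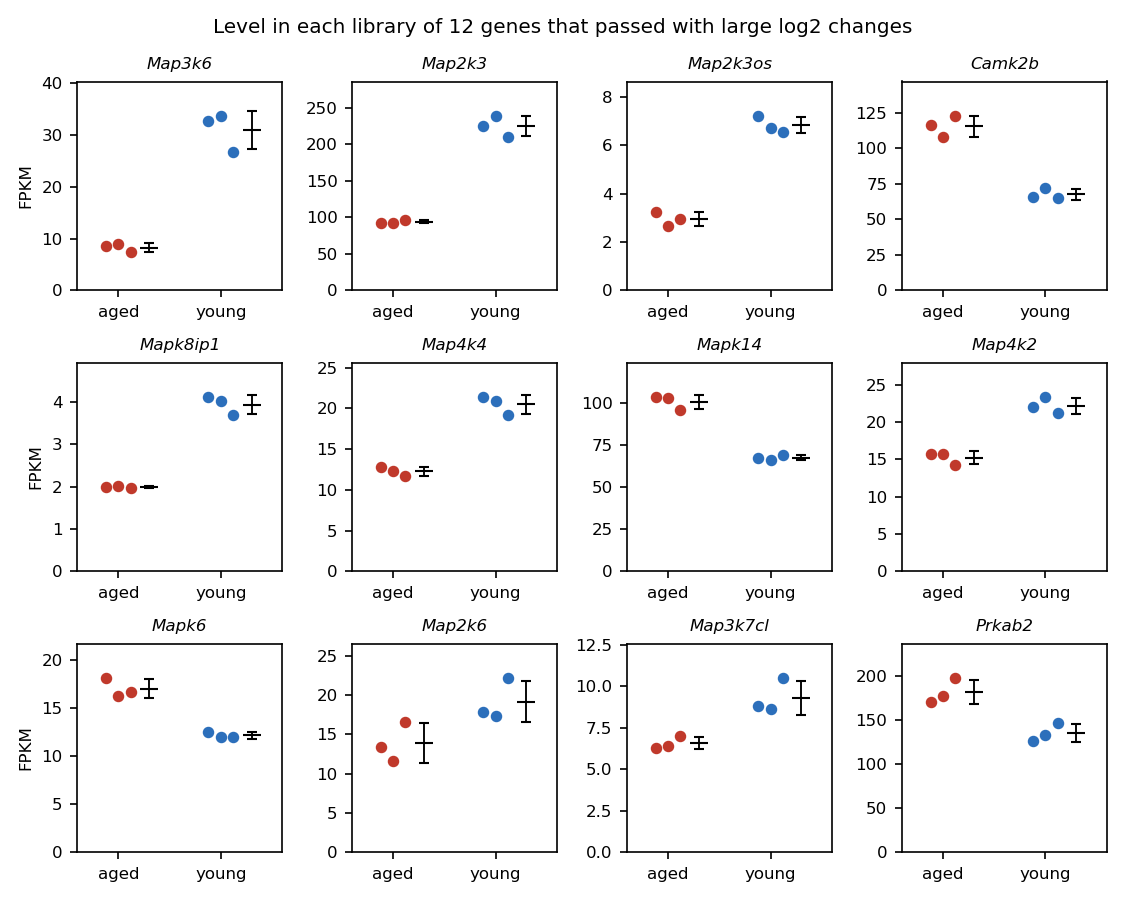
FPKM in each library (y axis, starting at 0) of 12 members that passed, from among those with the largest log2 changes. Red points are aged libraries and blue points young ones (x axis), with the mean and SD of each group as a bar (n = 3). Groups do not overlap in any panel, and Map2k6 comes closest to it, with 16.6 FPKM in aged replicate 3 and 17.4 FPKM in young replicate 2.

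In the ERK branch the levels were close. Map2k2 (MEK2) averaged 163 ± 7.70 FPKM in aged muscle and 158 ± 6.48 FPKM in young muscle (SD, n = 3 each). Map2k1 (MEK1) averaged 58.6 ± 1.55 FPKM in aged muscle and 57.5 ± 0.867 FPKM in young muscle (SD, n = 3 each). Neither passed, with log2 changes of 0.04 ± 0.06 for Map2k2 and 0.03 ± 0.05 for Map2k1 (SE). Mapk3 (ERK1), which they activate, had 29.9, 29.3 and 25.8 FPKM in aged muscle, against 30.9, 31.9 and 29.9 FPKM in young muscle. Each aged library lay below each young one, and the gene did not pass, with a log2 change of −0.12 ± 0.07 (SE, adjusted p = 0.172).

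Other MAP kinases changed more. Mapk6 (ERK3), an atypical MAP kinase, had 18.1, 16.3 and 16.7 FPKM in aged muscle, against 12.6, 12.02 and 11.97 FPKM in young muscle, and rose, with a log2 change of 0.45 ± 0.06 (SE, adjusted p = 0.00123). Mapk9 (JNK2) averaged 17.3 ± 1.05 FPKM in aged muscle and 14.9 ± 0.0775 FPKM in young muscle (SD, n = 3 each), and rose, with a log2 change of 0.20 ± 0.06 (SE, adjusted p = 0.0307). Mapk9 did not pass without aged replicate 1 (adjusted p = 0.0654), aged replicate 3 (0.0765), young replicate 1 (0.0799), young replicate 2 (0.0831) or young replicate 3 (0.0827). Mapk7 (ERK5), which Map2k5 activates, averaged 3.89 ± 0.499 FPKM in aged muscle and 4.995 ± 0.407 FPKM in young muscle (SD, n = 3 each), and fell, with a log2 change of −0.30 ± 0.10 (SE, adjusted p = 0.0340). Mapk7 did not pass without aged replicate 3 (adjusted p = 0.0866), young replicate 1 (0.108) or young replicate 2 (0.0945). Nor did it pass with no minimum on the level (0.0625) or on rescaling (0.0638).

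Map2k4 and Map2k7, the kinases that activate JNK, did not pass, and neither did Map2k5, with a log2 change of 0.06 ± 0.06 (SE, adjusted p = 0.377). Map2k4 averaged 69.2 ± 7.18 FPKM in aged muscle and 62.7 ± 3.78 FPKM in young muscle (SD, n = 3 each), with a log2 change of 0.14 ± 0.08 (SE, adjusted p = 0.208). Map2k7 averaged 35.5 ± 1.29 FPKM in aged muscle and 39.3 ± 0.892 FPKM in young muscle (SD, n = 3 each). Every aged library lay below every young one, with a log2 change of −0.15 ± 0.06 (SE, adjusted p = 0.0570). It passed with no minimum (adjusted p = 0.0379) and under median-of-ratios scaling (0.0467). Map2k7 shares 35.2% of its exon bases with an overlapping gene model. Mapk8ip1 (JIP1), a scaffold that holds the kinases of the JNK branch together, had 2.003, 2.02 and 1.97 FPKM in aged muscle, against 4.11, 4.01 and 3.70 FPKM in young muscle, and aged values were well below, with a log2 change of −0.72 ± 0.07 (SE, adjusted p = 0.000275). Mapkap1, the Sin1 subunit of mTOR complex 2, had the highest level among the scaffolds and binding proteins, 30.6 ± 0.944 FPKM in aged muscle and 27.7 ± 1.28 FPKM in young muscle (SD, n = 3 each), and did not pass, with a log2 change of 0.14 ± 0.06 (SE, adjusted p = 0.0882). It passed on rescaling (adjusted p = 0.0193). Of 8 genes tested in the MAP2K family, Map2k3os counted, none rose, 3 fell and 5 did not pass. The 3 falls were Map2k3, Map2k6 and the RNA gene Map2k3os. Of 4 scaffold and binding protein genes 1 fell and 3 did not pass. Over the whole cascade, from MAP4K to MAP kinases with scaffolds and activated kinases, 8 of 35 tested genes rose, 11 fell and 16 did not pass. That is 54.3% called, close to the 51.8% of all tested genes, and the falls include Map2k3os and Map3k7cl.

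Calmodulin kinases differed by subunit. Camk2b (chromosome 11, 5969644 to 6066362), the beta subunit of CaMKII, had 117, 108 and 122 FPKM in aged muscle, against 66.0, 72.2 and 65.1 FPKM in young muscle. Every aged library was far above every young one, and the log2 change was 0.76 ± 0.07 (SE, adjusted p = 0.000217). Camk2a, the most abundant CaMKII gene here, had 178, 174 and 208 FPKM in aged muscle, against 169, 178 and 197 FPKM in young muscle. Its groups overlapped, with a log2 change of 0.04 ± 0.09 (SE, adjusted p = 0.712). Camk2g had 57.3, 48.1 and 54.4 FPKM in aged muscle, against 60.1, 60.2 and 60.5 FPKM in young muscle. Each aged library lay below each young one, but the gene did not pass, with a log2 change of −0.18 ± 0.07 (SE, adjusted p = 0.0692). It passed without aged replicate 1 (adjusted p = 0.0352) and under median-of-ratios scaling (0.0387). Camk2d, the fourth gene, averaged 18.5 ± 1.42 FPKM in aged muscle and 16.4 ± 1.32 FPKM in young muscle (SD, n = 3 each), with a log2 change of 0.17 ± 0.08 (SE, adjusted p = 0.123), and passed only on rescaling (adjusted p = 0.0433).

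The share of Camk2b in the summed FPKM of the 4 CaMKII genes was 30.9 ± 0.528% in aged muscle and 20.8 ± 1.55% in young muscle. With the longest transcript as the length it was 31.5 ± 0.269% in aged muscle and 20.8 ± 1.38% in young muscle. The share of Camk2g was 14.3 ± 1.03% in aged muscle and 18.5 ± 0.742% in young muscle. The share of Camk2a was 49.9 ± 1.78% in aged muscle and 55.6 ± 2.12% in young muscle. The shares (mean ± SD, n = 3 each) are descriptions, and no test was made on them.

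Camk1, a calmodulin kinase with a single catalytic chain, had 17.6, 17.0 and 17.6 FPKM in aged muscle, against 14.2, 13.4 and 14.4 FPKM in young muscle, and rose, with a log2 change of 0.30 ± 0.06 (SE, adjusted p = 0.00494). Camkk2, the kinase that activates Camk1, Camk4 and AMPK, had 3.77, 2.92 and 2.61 FPKM in aged muscle, against 4.71, 4.22 and 3.75 FPKM in young muscle. It passed as lower, with a log2 change of −0.36 ± 0.12 (SE, adjusted p = 0.0371), although aged replicate 1 lay just above young replicate 3. Camkk2 did not pass without aged replicate 2 (adjusted p = 0.0905), aged replicate 3 (0.111), young replicate 1 (0.117) or young replicate 2 (0.0913). It did not pass with no minimum (0.0717) or on rescaling (0.0606). Camk2n1, an inhibitor of CaMKII, averaged 3.59 ± 0.287 FPKM in aged muscle and 4.20 ± 0.282 FPKM in young muscle (SD, n = 3 each), and did not pass, with a log2 change of −0.18 ± 0.08 (SE, adjusted p = 0.0863). Of the 8 genes of this family tested, 2 rose, 1 fell and 5 did not pass.

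**Figure D4:**
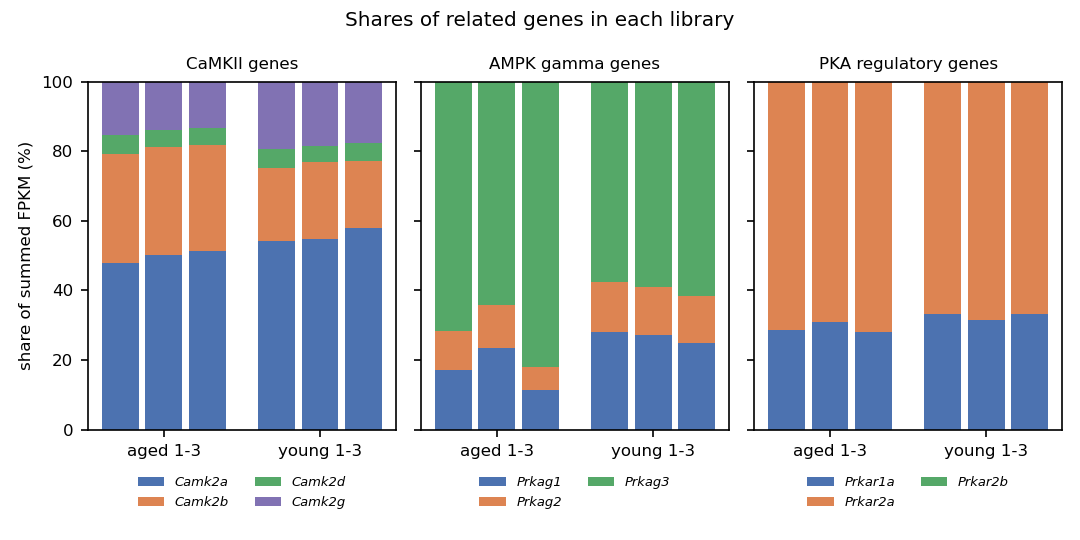
Share of each gene in the summed FPKM of its set, in percent (y axis), in each of the 3 aged and 3 young libraries (x axis, replicates 1 to 3 from left to right), for CaMKII, AMPK gamma and PKA regulatory genes. The Camk2b segment takes 30.9% of the aged bars on average and 20.8% of the young ones.

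AMPK subunits were read by their place in the trimer. The catalytic subunits did not pass. Prkaa2 (alpha 2), the main form in muscle, had 40.5, 33.9 and 41.7 FPKM in aged muscle, against 34.0, 32.9 and 35.8 FPKM in young muscle. The groups overlapped, with a log2 change of 0.17 ± 0.09 (SE, adjusted p = 0.137), and the gene passed without aged replicate 2 (adjusted p = 0.0160). Prkaa1 (alpha 1) averaged 3.97 ± 0.272 FPKM in aged muscle and 3.86 ± 0.136 FPKM in young muscle (SD, n = 3 each), with a log2 change of 0.03 ± 0.07 (SE, adjusted p = 0.713). Prkaa2 held 90.6 ± 0.773% of the summed alpha FPKM in aged muscle and 89.9 ± 0.498% in young muscle.

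Prkab2 (beta 2), the AMPK gene of highest level, had 170.3, 177 and 197 FPKM in aged muscle, against 126, 133 and 146 FPKM in young muscle. All aged values were above all young ones, with a log2 change of 0.42 ± 0.08 (SE, adjusted p = 0.00387). Prkag1 (gamma 1), the widely expressed gamma subunit, had 12.3, 14.0 and 11.7 FPKM in aged muscle, against 15.9, 16.1 and 15.5 FPKM in young muscle, and fell, with a log2 change of −0.30 ± 0.08 (SE, adjusted p = 0.0128). An antisense gene model shares 43.7% of the exon bases of Prkag1. Prkag2 (gamma 2) averaged 7.45 ± 0.638 FPKM in aged muscle and 8.20 ± 0.169 FPKM in young muscle (SD, n = 3 each), and did not pass, with a log2 change of −0.13 ± 0.07 (SE, adjusted p = 0.183).

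Prkag3 (gamma 3, chromosome 1, 74738922 to 74749221) is the gamma subunit of fast glycolytic muscle. It had 51.8, 38.4 and 84.3 FPKM in aged muscle, against 32.7, 34.6 and 38.3 FPKM in young muscle. The aged libraries spread widely, with replicate 2 beside the highest young value and replicate 3 at 239% of the young mean. The log2 change of 0.64 ± 0.24 (SE, adjusted p = 0.0573) did not pass. It did pass with the replicate block (adjusted p = 0.0179), without aged replicate 2 (0.0106) and on rescaling (0.0397). The share of Prkag3 in the gamma subunits was 72.6 ± 8.998% in aged muscle and 59.4 ± 1.99% in young muscle, and that of Prkag1 was 17.3 ± 6.05% in aged muscle and 26.7 ± 1.62% in young muscle. Of 6 AMPK genes 1 rose, 1 fell and 4 did not pass.

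PKA genes moved little. Prkar2a (RII alpha), which docks PKA to anchoring proteins, was the PKA gene of highest level and had 211, 207 and 219.9 FPKM in aged muscle, against 179.5, 179 and 181 FPKM in young muscle. The groups were separate, with a log2 change of 0.24 ± 0.05 (SE, adjusted p = 0.00662). Prkacb (C beta), a catalytic subunit, had 22.9, 23.2 and 24.6 FPKM in aged muscle, against 18.7, 19.8 and 19.7 FPKM in young muscle, and also rose, with a log2 change of 0.26 ± 0.06 (SE, adjusted p = 0.00793). Prkaca (C alpha), the main catalytic subunit, averaged 63.5 ± 3.91 FPKM in aged muscle and 59.8 ± 1.29 FPKM in young muscle (SD, n = 3 each), with a log2 change of 0.09 ± 0.06 (SE, adjusted p = 0.272). Prkar1a (RI alpha) averaged 88.1 ± 3.59 FPKM in aged muscle and 87.7 ± 4.21 FPKM in young muscle (SD, n = 3 each), with a log2 change of 0.01 ± 0.06 (SE, adjusted p = 0.942). Neither of these passed. Of the summed FPKM of the PKA regulatory genes, Prkar2a made up 70.6 ± 1.33% in aged muscle and 67.1 ± 0.984% in young muscle. Of 4 PKA genes tested 2 rose and 2 did not pass.

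Akt kinases carry the insulin signal, and mTOR integrates it with amino acids. Akt2, the form that serves insulin-stimulated glucose uptake, had 238, 259 and 265 FPKM in aged muscle, against 204, 213 and 211 FPKM in young muscle. Each aged library was above each young one, with a log2 change of 0.28 ± 0.06 (SE, adjusted p = 0.00671). Akt1 had 101, 90.3 and 81.7 FPKM in aged muscle, against 79.5, 79.5 and 79.4 FPKM in young muscle, and the aged libraries were all above the very uniform young ones without passing, with a log2 change of 0.19 ± 0.08 (SE, adjusted p = 0.0766). Akt1 passed without aged replicate 3 (adjusted p = 0.0181) and on rescaling (0.0308). Mtor averaged 24.7 ± 2.38 FPKM in aged muscle and 26.0 ± 0.656 FPKM in young muscle (SD, n = 3 each), and did not pass, with a log2 change of −0.07 ± 0.08 (SE, adjusted p = 0.460).

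Ribosomal S6 kinases lie downstream of ERK (the RSK and MSK forms) or of mTOR (the S6K forms). Rps6ka3 (RSK2) had 48.2, 44.2 and 47.7 FPKM in aged muscle, against 36.2, 32.4 and 38.2 FPKM in young muscle. It rose, with a log2 change of 0.38 ± 0.07 (SE, adjusted p = 0.00453), with no overlap between the groups. Rps6ka2 (RSK3) averaged 33.2 ± 1.90 FPKM in aged muscle and 32.2 ± 0.343 FPKM in young muscle (SD, n = 3 each), with a log2 change of 0.04 ± 0.06 (SE, adjusted p = 0.575). Which of them leads the RSK genes depends on the length: Rps6ka3 held 55.04 ± 0.741% of the summed RSK FPKM in aged muscle and 49.3 ± 1.90% in young muscle, but 22.9 ± 0.580% in aged and 19.0 ± 1.18% in young muscle with the longest transcripts, where Rps6ka2 leads. Rps6kb1 (S6K1), the growth effector of mTOR, had 19.3, 18.3 and 22.6 FPKM in aged muscle, against 18.0, 16.8 and 17.5 FPKM in young muscle. The lowest aged value lay just above the highest young one, and the gene did not pass, with a log2 change of 0.19 ± 0.08 (SE, adjusted p = 0.0908). It passed without aged replicate 2 (adjusted p = 0.0437) and on rescaling (0.0311). Of 6 genes tested 1 rose, none fell and 5 did not pass.

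Further tested members that did not pass and had small changes were Map3k11, Map3k2, Map4k3, Mapk1ip1, Mapkbp1, Camk1d, Rps6ka1, Rps6ka4 and Rps6ka5, with log2 changes between −0.19 and 0.19. Rps6ka4 (MSK2) passed without aged replicate 3 (adjusted p = 0.0281) and on rescaling (0.0344). The remaining 12 members lay under a mean of 1 FPKM and were not tested, namely Map3k15, Map3k9, Mapk10, Mapk15, Mapk4, Mapk8ip2, Prkar2b, Camk1g, Camk4, Camkk1, Rps6ka6 and Rps6kl1. Their means lay between 0.0348 and 0.685 FPKM. In 7 of the 12 the groups did not overlap, 4 with aged above young and 3 with aged below, beside 39.3% of all 3549 listed genes under this level. These members are given as values only. An example is Camk1g, at 0.0265, 0.0369 and 0 FPKM in aged muscle, against 0.155, 0.177 and 0.118 FPKM in young muscle. Map3k15 had 0.564, 0.428 and 0.573 FPKM in aged muscle, against 0.336, 0.310 and 0.374 FPKM in young muscle, and 13.9% of its exon bases are shared with Pdha1, a gene of far higher level.

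The levels of markers of the cell types of muscle differed with age as well. Muscle fibre markers, read as a check of the labelled tissue, summed to 59689 to 64070 FPKM in aged muscle and 61807 to 67709 FPKM in young muscle, more than any other marker list in each library. Among these 6 markers 2 rose, Myh4 and Tnnt3, and 2 fell, Myh1 and Acta1. Markers of fibroblasts and tendon summed to 218 to 284 FPKM in aged muscle, against 1164 to 1715 FPKM in young muscle, and 6 of 7 fell. Endothelial markers summed to 120 to 145 FPKM in aged muscle and 148 to 168 FPKM in young muscle, with 3 of 5 lower and 1 higher. Macrophage markers summed to 9.61 to 20.4 FPKM in aged muscle and 20.97 to 34.5 FPKM in young muscle, with 3 of 4 lower. Schwann cell markers summed to 63.5 to 66.2 FPKM in aged muscle and 87.1 to 99.6 FPKM in young muscle, with 2 of 5 lower. Smooth muscle and pericyte markers summed to 159.5 to 173 FPKM in aged muscle and 177 to 196 FPKM in young muscle, with 3 of 5 lower. Erythroid markers summed to 228 to 236 FPKM in aged muscle and 124 to 182 FPKM in young muscle, with 2 of 4 higher. Lymphocyte markers summed to 22.3 to 36.7 FPKM in aged muscle and 8.39 to 11.7 FPKM in young muscle. Only Ighm of these 5 was tested, and it rose, while Ms4a1 and Cd8a were at 0 in at least 1 library. Adipocyte markers summed to 17.0 to 24.8 FPKM in aged muscle and 21.2 to 25.8 FPKM in young muscle, with 2 of 4 higher (Adipoq and Plin1) and Cfd, which holds most of the sum in young muscle, lower. Stem cell markers summed to 12.9 to 15.3 FPKM in aged muscle and 16.1 to 16.7 FPKM in young muscle, and neither of the 2 tested passed. The part of these cell types in the kinase results was not tested.

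The partners of these kinases were read from lists of known regulators and targets. Among 12 genes of Ras, Raf and receptor adaptors, 5 rose, 1 fell and 6 did not pass. Ksr1, a scaffold of the ERK branch, had 149, 187 and 182 FPKM in aged muscle, against 109, 113 and 111 FPKM in young muscle, with a log2 change of 0.63 ± 0.09 (SE, adjusted p = 0.00115). Rasa1, which switches Ras off, rose by 0.38, and Gab1, a docking protein of growth factor receptors, fell by 0.48 on the log2 scale.

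Of 14 MAP kinase phosphatases and feedback inhibitors, 4 rose, 5 fell and 5 did not pass. Dusp10, a phosphatase of p38 and JNK, had 25.7, 21.05 and 27.1 FPKM in aged muscle, against 12.1, 13.1 and 19.5 FPKM in young muscle, and rose, with a log2 change of 0.71 ± 0.17 (SE, adjusted p = 0.0105). Dusp7, a phosphatase of ERK, had 37.9, 29.1 and 28.9 FPKM in aged muscle, against 53.2, 55.01 and 43.3 FPKM in young muscle, and fell, with a log2 change of −0.65 ± 0.13 (SE, adjusted p = 0.00482). Dusp26, a further phosphatase of this class, averaged 44.0 ± 3.96 FPKM in aged muscle and 67.1 ± 4.55 FPKM in young muscle (SD, n = 3 each), with a log2 change of −0.60 ± 0.08 (SE, adjusted p = 0.00105). None of 10 MAP kinase responsive transcription factor genes rose, 4 fell and 6 did not pass. Jun, a subunit of AP-1, had 37.8, 47.0 and 38.4 FPKM in aged muscle, against 56.2, 61.0 and 64.8 FPKM in young muscle, with a log2 change of −0.56 ± 0.10 (SE, adjusted p = 0.00279). Fosl2, another AP-1 gene, fell by 0.58 and Ier3, an immediate early gene, by 0.49 on the log2 scale. Of all tested genes, 27.3% were called higher and 24.5% lower. The list had 40.0% called, below the 51.8% of all tested genes. The genes that did not pass went both ways. Fos, Junb and Egr1 had log2 changes of 0.38, 0.32 and 0.13, and Atf3, Ier2 and Jund of −0.72, −0.24 and −0.06.

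Of 17 AMPK activators, scaffolds and substrates 6 rose, 4 fell and 7 did not pass. Tbc1d1 and Tbc1d4 (AS160) are paralogs that hold back glucose transporter vesicles until AMPK or Akt phosphorylates them, and they went opposite ways. Tbc1d1 had 52.9, 54.3 and 55.7 FPKM in aged muscle, against 109.9, 123.4 and 107 FPKM in young muscle, with a log2 change of −1.05 ± 0.07 (SE, adjusted p = 5.16e-05). Tbc1d4 had 16.7, 15.2 and 14.8 FPKM in aged muscle, against 9.42, 7.61 and 9.56 FPKM in young muscle, with a log2 change of 0.75 ± 0.09 (SE, adjusted p = 0.000723). Neither pair of groups overlapped. Fnip1, a partner of folliculin that binds AMPK, averaged 19.1 ± 2.06 FPKM in aged muscle and 14.0 ± 1.56 FPKM in young muscle (SD, n = 3 each), with a log2 change of 0.42 ± 0.10 (SE, adjusted p = 0.0106).

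Among 33 genes of cyclic AMP production, breakdown, anchoring and response 10 rose, 7 fell and 16 did not pass. Pde7a, a phosphodiesterase that degrades cyclic AMP, had 71.7, 100.1 and 80.9 FPKM in aged muscle, against 36.2, 37.2 and 36.1 FPKM in young muscle, with a log2 change of 1.17 ± 0.11 (SE, adjusted p = 0.000249). Adcy2, an adenylyl cyclase that makes it, had 21.3, 22.7 and 20.4 FPKM in aged muscle, against 13.1, 11.9 and 12.7 FPKM in young muscle, with a log2 change of 0.73 ± 0.07 (SE, adjusted p = 0.000221). Of the 6 adenylyl cyclase genes tested 2 rose, 3 fell (Adcy5, Adcy6 and Adcy7) and 1 did not pass, and of the 8 phosphodiesterase genes 1 rose, 2 fell (Pde4a and Pde4c) and 5 did not pass. Akap6, an anchoring protein of muscle PKA, averaged 6.59 ± 1.68 FPKM in aged muscle and 3.97 ± 0.1196 FPKM in young muscle (SD, n = 3 each), with a log2 change of 0.59 ± 0.15 (SE, adjusted p = 0.0125).

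Of the 18 genes of calmodulin, calcineurin and class II deacetylases 9 rose, 3 fell and 6 did not pass. That is 66.7% called, beside 51.8% of all tested genes. This list was not alone: the share was also 66.7% for the PI3K, Akt and mTOR partners and 64.3% for the MAP kinase phosphatases and feedback inhibitors. The other partner lists lay between 40.0% and 58.8%. Calm2, which encodes calmodulin, the calcium sensor of the CaMK family, had 113, 98.4 and 122 FPKM in aged muscle, against 64.3, 53.6 and 64.4 FPKM in young muscle. It was higher in every aged library, with a log2 change of 0.86 ± 0.10 (SE, adjusted p = 0.000587). Hdac9, a class II deacetylase, averaged 2.85 ± 0.282 FPKM in aged muscle and 0.886 ± 0.238 FPKM in young muscle (SD, n = 3 each), with a log2 change of 1.04 ± 0.11 (SE, adjusted p = 0.000379). The young mean of Hdac9 lay under the minimum of 1 FPKM, so the gene was tested only because of its aged level. Both other class II deacetylases tested in the list fell. Hdac5 averaged 64.4 FPKM in aged and 79.6 FPKM in young muscle, with a log2 change of −0.30 (adjusted p = 0.00374). Hdac7 had a log2 change of −0.21 (adjusted p = 0.0497).

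Among 24 PI3K, Akt and mTOR partners, 7 rose, 9 fell and 8 did not pass. Ddit4, an inhibitor of mTOR complex 1, averaged 12.2 ± 2.17 FPKM in aged muscle and 124 ± 10.7 FPKM in young muscle (SD, n = 3 each), with a log2 change of −3.25 ± 0.13 (SE, adjusted p = 1.12e-05). Sesn1, a sensor of leucine that inhibits mTOR complex 1, had 12.7, 15.3 and 14.9 FPKM in aged muscle, against 41.0, 38.1 and 32.7 FPKM in young muscle, with a log2 change of −1.32 ± 0.10 (SE, adjusted p = 0.000116). Foxo1, a transcription factor that Akt holds out of the nucleus, had 2.53, 3.41 and 3.43 FPKM in aged muscle, against 8.32, 7.997 and 6.40 FPKM in young muscle, with a log2 change of −1.06 ± 0.12 (SE, adjusted p = 0.000560). Other genes linked to mTOR complex 1 in the list, named after their values were seen, did not follow Ddit4 and Sesn1 as a group. Ddit4l, a paralog of Ddit4, rose by 0.96 on the log2 scale, while the inhibitors Sesn2, Sesn3, Deptor and Akt1s1 did not pass, with log2 changes of −0.01, 0.12, 0.13 and −0.17 in that order. Rptor, a component of the complex, fell by 0.22. Of further genes linked to it, Eif4ebp1 fell by 0.59, while Eif4ebp2 rose by 0.50 and Rheb by 0.18. The aged values of Ddit4, Sesn1 and Foxo1 were less than those of any young library.

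**Figure D5:**
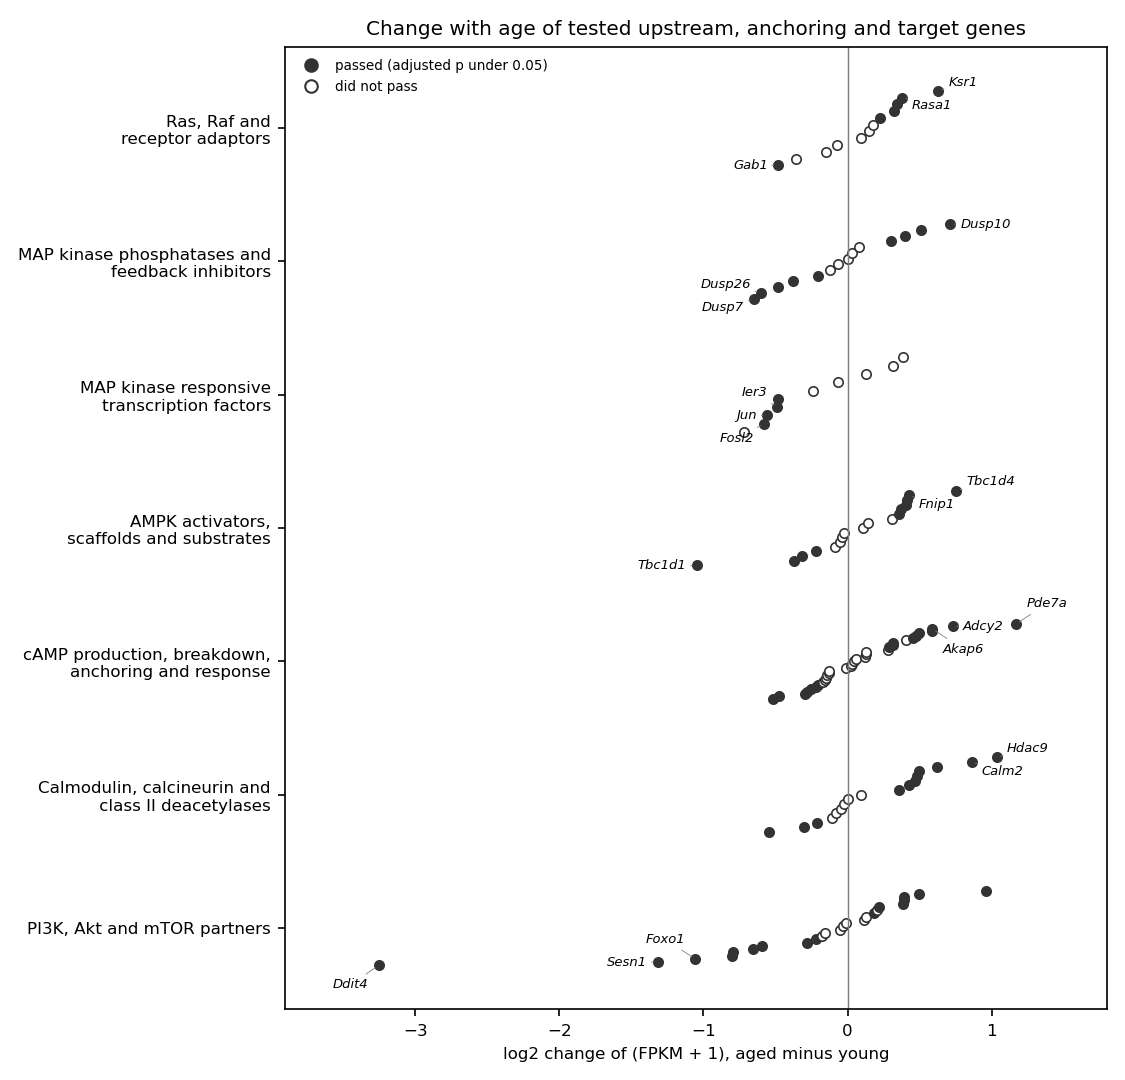
Log2 change of (FPKM + 1), aged minus young (x axis), of tested genes in the 7 lists of kinase partners (y axis). Filled points passed, open points did not, and up to 3 genes with large changes are labelled in each list. Ddit4 lies far to the left at −3.25 and Pde7a farthest to the right at 1.17.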

How the data were processed

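TA muscle RNA was taken up in TRIzol and sequenced as Illumina libraries, per the labels' protocols. The authors deposited FPKM values in a table of its own for every library. The tools named in the submitters' processing notes are bcl2fastq 2.19, TopHat and DESeq2, and the build named there is mm9. The positions listed match GRCm38: 11210 of 11239 identifiers are in GENCODE M21, 98.9% with a start within 5000 bases. How the listed genes were chosen and the fragments counted is not stated in the sources used here. The listed genes hold 80.0 to 81.1% of each library's fragments. Whole fragment counts were recovered from the FPKM values. For each gene a length was sought that brings all its values within 0.001 of a whole number, so this closeness is a criterion and not a check. Of 2185 genes with 1 annotated transcript, 89.7% gave the length of that transcript. In these libraries, 3 fragments on 1 kb correspond to 0.0294 to 0.0417 FPKM.

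Genes whose mean reached 1 FPKM were compared as log2(FPKM + 1), computed here from the deposited values without further scaling, with limma 3.58.1 in R 4.3.3 (trended empirical Bayes, two-sided, Benjamini-Hochberg). The procedure was tested on simulated data. Nothing says that the samples are separate animals, so p-values measure the spread between these samples. Libraries with the same replicate number deviated together from their group means (correlations of 0.177, 0.182 and 0.136, against −0.192 to 0.0358 for other numbers). Deviations from a group mean cancel within the group, so a mix of positive and negative correlations arises without any pairing. On this weak ground alone the numbers were taken to pair the samples, and a fit with the number as a block was made. Alternatives changed the pseudocount, minimum, scaling, variance prior, length, count model and samples. The use of the longest transcript was chosen after seeing the data. Members, families, partner lists and markers were chosen with earlier results of these data known. Named in each family were the member of highest level and up to 4 that passed with the largest change, with a set of well-known kinases, and in each partner list up to 3 that passed. Other genes given with values fall outside this rule, among them Map3k1, Map3k4, Map3k5, Map3k7, Map2k1, Map2k4, Map2k7, Prkag2, Camk2n1 and Rps6ka2. So do Hdac5, Hdac7 and Ddit4l in the partner lists. Some genes are not reported here.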

Additional observations from a re-analysis of the deposited data

How the results depend on the processing

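No member and no named partner gene that passed changed its direction in any of the alternatives. Of the 29 members that passed, 21 did so in every alternative in which they were tested and 8 were lost in at least 1, while 10 of the other 34 passed in at least 1. With 1 library left out, 11 to 17 members rose and 11 to 14 fell. With a minimum of 5 FPKM, 8 members fell, since 51 and not 63 members were then tested. The replicate block left 15 members higher and 14 lower: Map4k5 was lost (adjusted p = 0.0620), Prkag3 was gained (adjusted p = 0.0179), and no other call of a member or named partner changed. Rescaling without the 20 highest genes moved the median log2 change of all genes by 0.06, gained 7 members and lost Mapk7 and Camkk2. A test on the recovered fragment counts (limma's voom) gave 15 higher and 14 lower members, and over all genes 2096 higher and 1892 lower. Levels set between genes depend on the transcript length. Exon bases shared with another gene, which 22 members have, cannot be parted on opposite strands without strand information. Map2k7, Rps6ka4 and Rps6ka5 share bases with a gene model on the same strand, where strand information would not part them either.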
